A study of Mus musculus with 6 samples.

Results

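RNA levels of lipid droplet protein genes and of the nuclear receptor gene Pparg were followed in livers of mice injected to overexpress TFEB. The set holds 10 genes chosen by symbol: Pparg, the droplet coat genes Plin2 and Plin4, the CIDE genes Cidea, Cideb and Cidec, the lipase gene Pnpla2, its inhibitor gene G0s2, and the triglyceride synthases Dgat1 and Dgat2. They are 10 of the 12393 genes measured, with 12 of the 20380 probe sets that carry a single gene symbol. Livers of 3 mice injected with an adenoviral vector to overexpress TFEB were compared with livers of 3 mice that received no injection. All mice were wild type on the C57 background and 1 month old, and each liver was hybridised to its own array. No liver given an empty vector is among the samples, so TFEB, the vector and the injection cannot be told apart. The labels give no feeding state, no time between injection and harvest, and not the promoter of the vector.

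Hepatocytes store surplus fatty acids as triglyceride in lipid droplets. DGAT enzymes add the last fatty acid, perilipins coat the droplet surface, and CIDE proteins sit where droplets touch and promote droplet growth there. CIDEB also promotes the loading of lipoproteins. The lipase ATGL, product of Pnpla2, starts the breakdown of stored triglyceride and is held back by the small protein G0S2. PPAR-gamma drives the storage programme of fat cells and is known for its rise in fatty mouse liver, where Cidec, Plin4 and Cd36 are known targets. TFEB is known as an activator of lysosomal genes through the CLEAR element, and of lipid breakdown in liver.

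Windows of 250 bases upstream of the annotated starts were read for 7 of the 10 genes from RefSeq (GRCm38.p6), 10 windows in all. Cidea, Dgat1 and Dgat2 had no entry. Neither the E-box CACGTG nor TCACGTGA, the E-box with the bases that flank it in the CLEAR element, occurred on either strand in these 10 windows. Among all 32851 windows of this length, 6.02% held the E-box and 0.785% the longer form. A direct repeat of AGGTCA with 1 base between, the form bound by PPAR with RXR, was in 0 of the 10 windows and in 0.0335% of all. The hexamer AGGTCA alone, which 14.0% of all windows held on either strand, was present once before Plin2 and once before each of 2 of the 3 annotated starts of Pparg. Both Pparg windows with the hexamer are given 5′ to 3′, with the hexamer in capitals, because Pparg is the one transcription factor of the set. The windows of the genes with the largest rise (Plin4) and the largest fall (G0s2) are given beside them and hold none of the strings searched. They lie at chr6:115360894-115361143 (plus strand) and chr6:115362099-115362348 (plus strand) for Pparg, chr17:56109783-56110032 (minus strand) for Plin4 and chr1:193273189-193273438 (minus strand) for G0s2.
Pparg, upstream start: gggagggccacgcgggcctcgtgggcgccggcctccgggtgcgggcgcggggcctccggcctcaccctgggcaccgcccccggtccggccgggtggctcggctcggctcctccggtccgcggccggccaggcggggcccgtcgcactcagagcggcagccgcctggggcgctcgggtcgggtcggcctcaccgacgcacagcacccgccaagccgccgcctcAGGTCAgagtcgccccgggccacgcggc
Pparg, next start: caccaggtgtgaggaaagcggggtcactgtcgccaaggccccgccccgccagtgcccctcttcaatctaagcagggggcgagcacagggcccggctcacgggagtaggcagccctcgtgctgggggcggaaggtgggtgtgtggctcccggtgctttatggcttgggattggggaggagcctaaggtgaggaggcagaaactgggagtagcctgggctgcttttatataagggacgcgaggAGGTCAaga
Plin4: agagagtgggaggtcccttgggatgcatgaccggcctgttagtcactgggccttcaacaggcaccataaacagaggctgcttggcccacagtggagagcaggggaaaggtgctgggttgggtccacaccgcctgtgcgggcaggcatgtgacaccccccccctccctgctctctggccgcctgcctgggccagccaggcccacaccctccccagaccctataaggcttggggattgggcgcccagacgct
G0s2: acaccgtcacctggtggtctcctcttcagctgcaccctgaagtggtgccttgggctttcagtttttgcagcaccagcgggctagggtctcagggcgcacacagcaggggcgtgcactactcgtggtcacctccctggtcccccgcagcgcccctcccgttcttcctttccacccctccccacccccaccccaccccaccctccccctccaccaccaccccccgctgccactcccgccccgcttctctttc
A match is a string of letters in the reference and not a measured binding site, and a window without one says nothing about more distant sequence.

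Of the 10 genes, 5 were higher and 2 lower in TFEB-injected livers at an adjusted p under 0.05 (limma, Benjamini-Hochberg over all genes), and 3 did not pass. Over all genes 28.1% were called in this comparison. Groups did not overlap in 9 of the 10 genes, against 46.2% of all genes. The median difference of the 10 was 0.41 on the log2 scale, injected minus not injected, beside -0.05 over all genes. The count of called genes among the 10 was 5 without not-injected replicate 1, 2 or 3 or injected replicate 1, 6 when injected replicate 3 was left out and 8 when injected replicate 2 was. The same fits called 15.9% to 21.8% of all genes beside the 5, 19.0% beside the 6 and 35.3% beside the 8. In every one of these fits Plin4, Cidec, Pparg and Pnpla2 were called higher and G0s2 lower.

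**Figure D1:**
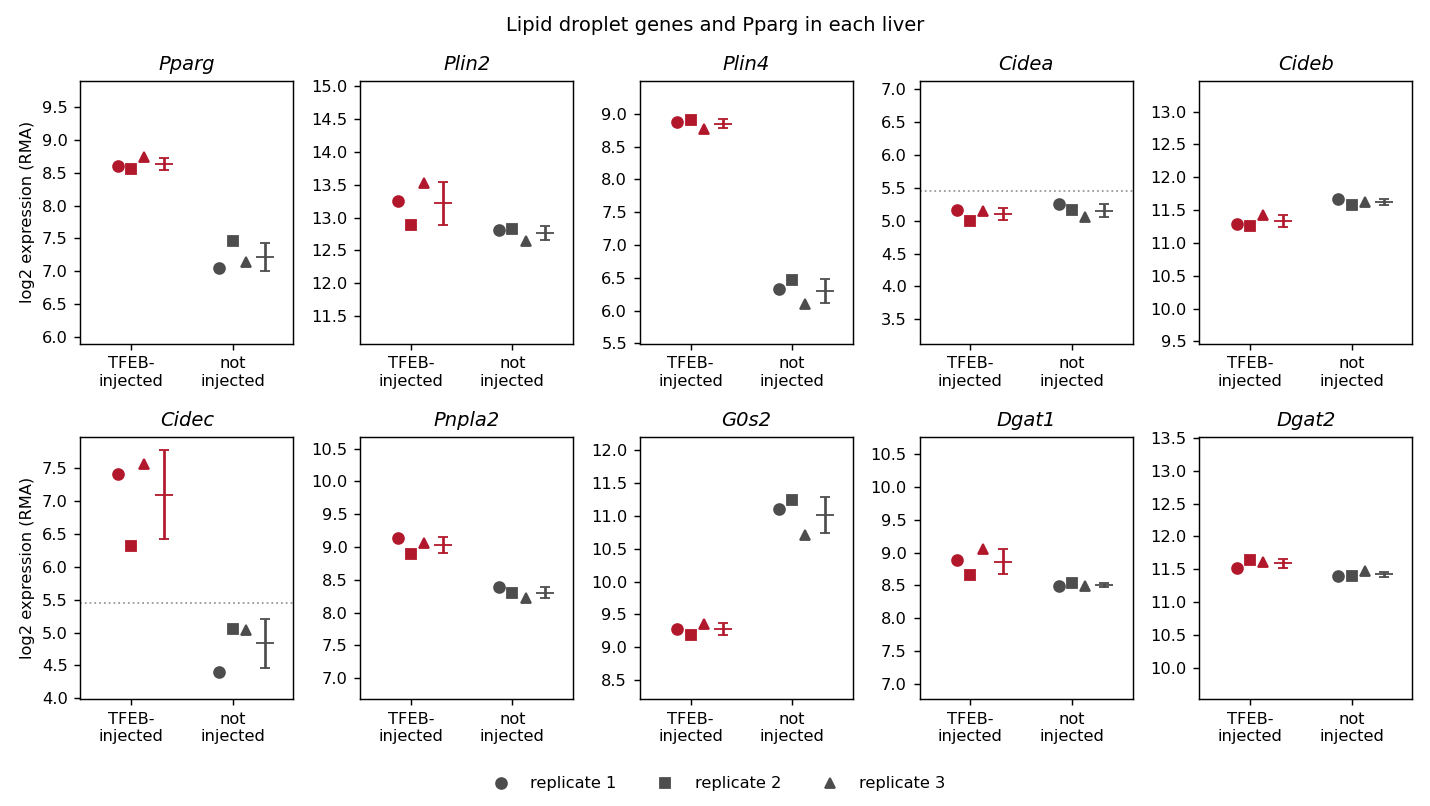
RMA log2 level (vertical axis, a separate range per panel) of each of the 10 genes in 3 TFEB-injected livers (left, red) and 3 livers without injection (right, grey). Marker shape gives the replicate number, bars the mean ± SD of 3 livers, and the dotted line the lowest lower quartile of any array (5.46). The groups lie far apart for Pparg, Plin4, Cidec and G0s2, lie close for Plin2 and Dgat2, and overlap only for Cidea.

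The groups also differed in added control RNAs. Correlations across probe sets, which are not independent replicates, were 0.992 to 0.997 among injected livers, 0.997 to 0.998 among livers without injection and 0.974 to 0.988 between the groups. Spike-in RNAs added at hybridisation (18 probe sets) read lower in injected livers by a median of -0.32, and poly-A spike-ins (24 probe sets) by a median of -0.44. All 18 and 23 of the 24 were lower without overlap of the groups. The part of this shift in the rises, falls and missed calls of genes given below was not tested. The 7 measured hepatocyte markers averaged 14.21 to 14.26 in injected livers and 14.34 to 14.35 in the others. Among them albumin read 15.06 in both groups, near the highest value on any array (15.20). Of the 7, 0 were called by limma (3 at an unadjusted p under 0.05, all lower). Their groups did not overlap in 6 of the 7, with Ttr higher and the others lower, against 46.2% of all genes. Tfeb itself read 7.58 ± 0.18 in injected livers and 7.52 ± 0.06 in the others (SD, n = 3 each; limma adjusted p = 0.716). The sequence of the transgene is not given, so this probe set does not check the labels.

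Pparg, the receptor gene, had log2 levels of 8.61, 8.56 and 8.74 in the 3 injected livers, against 7.05, 7.46 and 7.14 in livers without injection. Every injected liver lay at least 1.10 above every other liver. The difference of 1.42 ± 0.11 (SE) is a 2.67-fold higher level (limma adjusted p = 0.000286; exact permutation p = 0.1, the smallest that 20 assignments allow). Leaving out 1 array at a time kept the difference between 1.34 and 1.54. Of all genes, Card10 (root mean square distance 0.0955), Ctsz (0.12) and Mpp7 (0.122) had the values nearest to Pparg over the 6 arrays, each set relative to its mean without injection. Their differences were 1.34, 1.40 and 1.34 on the log2 scale. This likeness rests mainly on the step between the groups.

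The droplet coat genes moved by different amounts. Plin4, a perilipin abundant in fat cells, had levels of 8.88, 8.90 and 8.77 in injected livers and 6.34, 6.46 and 6.10 in livers without injection. The injected livers were tightly grouped and lay at least 2.31 above the rest. At 2.55 ± 0.10 (SE; 5.85-fold, limma adjusted p = 2.25e-05) this was the largest rise of the set and the ninth-smallest p of all 12393 genes. Vnn1 (root mean square distance 0.171), Ankrd22 (0.182) and Lgals1 (0.214) had the values nearest to Plin4, with differences of 2.73, 2.62 and 2.67.

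Plin2, the main perilipin of hepatocyte droplets, read 13.24, 12.88 and 13.52 in injected livers and 12.82, 12.83 and 12.64 without injection. The groups did not overlap, but injected replicate 2 stood only 0.05 above the highest liver of the other group. The difference of 0.46 ± 0.15 (SE; 95% interval 0.09 to 0.82) did not pass (limma adjusted p = 0.0643). Without injected replicate 2 the difference was 0.62 and passed (adjusted p = 0.00386), and with array weights it was 0.57 (adjusted p = 0.00977). Over all alternatives its adjusted p ran from 0.00386 to 0.187.

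The CIDE genes went in 3 ways. Cidec, whose product (also called FSP27) fuses droplets in fat cells and steatotic liver, read 7.42, 6.32 and 7.57 in injected livers and 4.41, 5.06 and 5.05 in the others. Injected replicate 2 lay between the groups' other livers, yet at least 1.26 above every liver without injection. The difference was 2.27 ± 0.33 (SE; limma adjusted p = 0.003), and it ran from 2.03 to 2.65 when 1 array was left out. All 3 livers without injection read under 5.46, the lowest of the arrays' lower quartiles, a range that RMA compresses, so the 4.81-fold change is not exact.

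Cideb, the CIDE gene typical of hepatocytes, read 11.29, 11.26 and 11.43 in injected livers, against 11.67, 11.58 and 11.63 without injection. The groups were apart by a small step, with a difference of -0.30 ± 0.07 (SE; 1.23-fold lower, limma adjusted p = 0.0192). The call was lost without any one of the not-injected replicates 1, 2 and 3 or of injected replicate 1 (adjusted p 0.0583, 0.051, 0.0663 and 0.0672; 0.011 to 0.0672 over all alternatives). The spike-in medians of -0.32 and -0.44 are as large and in the same direction, and their part in this result was not tested. The suffix of the Cideb probe set marks probes that may match transcripts of more than 1 gene.

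Cidea, a CIDE gene of brown fat, read 5.16, 5.0 and 5.14 in injected livers and 5.26, 5.16 and 5.05 in the others. All 6 values were under 5.46, the lowest of the arrays' lower quartiles, and the groups overlapped. The difference was -0.05 ± 0.08 (SE; 95% interval -0.24 to 0.14; limma adjusted p = 0.652).

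In lipolysis the lipase gene rose and the gene of its inhibitor fell. Pnpla2 read 9.14, 8.90 and 9.07 in injected livers and 8.39, 8.29 and 8.22 without injection. Every injected liver was above every other by 0.51 or more. The difference was 0.73 ± 0.08 (SE; 1.66-fold, limma adjusted p = 0.00121). A second, dim Pnpla2 probe set, fitted with all probe sets, of which 26.0% were called, read 5.31, 5.35 and 5.35 in injected livers and 4.92, 5.47 and 5.14 in the others. Its groups overlapped, with a difference of 0.16 ± 0.13 (SE; limma adjusted p = 0.396). With the mean of both probe sets the gene read 0.45 and was still called (adjusted p = 0.00597; 0.000225 to 0.0217 over all alternatives).

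G0s2 had levels of 9.29, 9.18 and 9.36 in injected livers, against 11.10, 11.24 and 10.72 without injection. The highest injected liver lay 1.35 below the lowest of the others. The fall of 1.74 ± 0.13 on the log2 scale (SE; 3.35-fold lower, limma adjusted p = 0.000234) was the largest of the set and stayed between -1.89 and -1.63 when 1 array was left out. The spike-in probe set that was lower by most read -0.57.

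**Figure D2:**
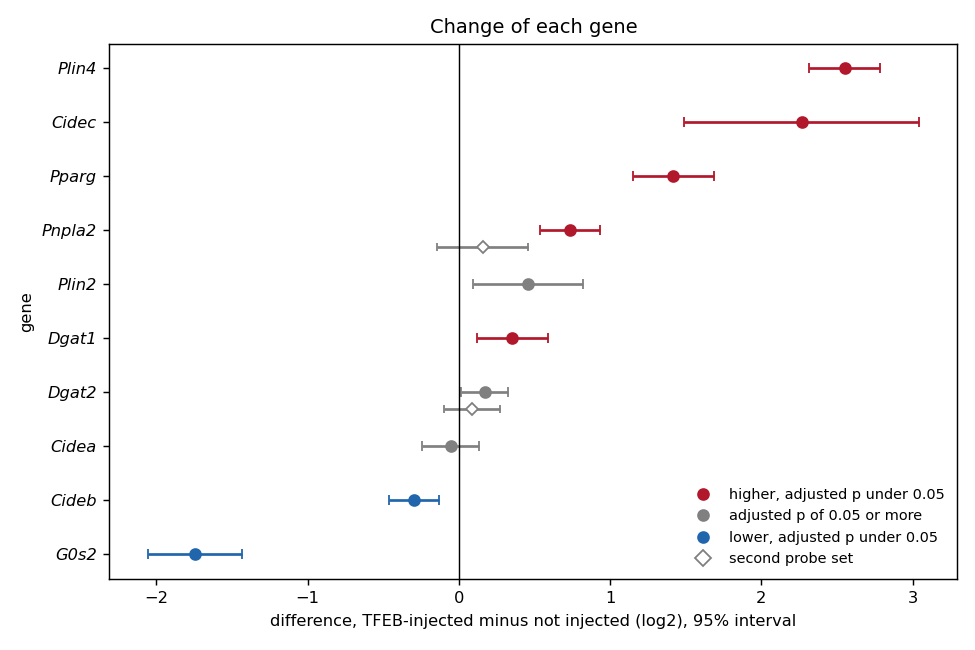
Difference in log2 level, TFEB-injected minus not injected (horizontal axis), of each gene from the limma fit over all genes, with its 95% interval. Red and blue points passed an adjusted p of 0.05, grey points did not, and open diamonds are the second probe sets of Pnpla2 and Dgat2. Plin4 at 2.55 and G0s2 at -1.74 mark the ends of the range.

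The triglyceride synthases showed small shifts. Dgat1 read 8.88, 8.66 and 9.05 in injected livers and 8.50, 8.54 and 8.49 without injection. The groups did not overlap, with injected replicate 2 nearest to the others. The difference of 0.35 ± 0.10 (SE; 1.28-fold) passed narrowly (limma adjusted p = 0.0352). The call was lost without not-injected replicate 1, 2 or 3 (adjusted p 0.0859, 0.0873 and 0.105), without injected replicate 1 or 3 (0.0974 and 0.0879), after a second quantile normalisation (0.0571) and without variance moderation (0.112), and its adjusted p ran down to 0.00375 without injected replicate 2. Its probe set too has the suffix of probes that may match several genes.

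Dgat2, an unrelated protein that mainly uses newly made fatty acids in liver, read 11.51, 11.65 and 11.61 in injected livers and 11.40, 11.40 and 11.47 in the others. The groups were apart, though by little. The difference of 0.17 ± 0.07 (SE; 95% interval 0.02 to 0.32) did not pass (limma adjusted p = 0.0945), and its second probe set read 0.09 ± 0.08 (SE; adjusted p = 0.445).

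Whether members of a functional pair changed unequally was tested on their within-array differences, for 4 pairs chosen with the results known. The change of Pnpla2 exceeded that of G0s2 by 2.48 on the log2 scale. The change of Cidec exceeded that of Cideb by 2.56 and the change of Plin4 that of Plin2 by 2.09, where the value for Cidec is inexact because its livers without injection read under 5.46. In these 3 pairs the groups did not overlap, and each reached the smallest p the design allows, which cannot pass 0.05. That was a two-sided exact permutation p of 0.1, or 0.133 adjusted over 4 pairs. Pnpla2 against G0s2, and Cidec against Cideb, had already moved in opposite directions without overlap as single genes. The outcome for these pairs was therefore fixed in advance and adds no support. For Dgat1 and Dgat2 the changes differed by 0.18 and the groups overlapped (exact permutation p = 0.4), and this test, whose smallest p is above 0.05, does not show whether the synthases differ.

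The 3 injected livers did not contribute alike to each gene. Replicate 2 was nearest to the livers without injection for Plin2, Cidec, Pnpla2, Pparg and Dgat1, which is 5 of the 10 genes, and over all genes it was nearest in 52.2%. Its shift from the mean of livers without injection was 1.49 for Cidec, against 2.58 in replicate 1 and 2.73 in replicate 3. For Plin2 its shift was 0.12, against 0.48 and 0.76. In contrast its shift for Plin4 was 2.60, beside 2.58 and 2.47, and for G0s2 it was -1.84, beside -1.73 and -1.66. Plin4 and G0s2 thus differed little among the injected mice, whereas Cidec and Plin2 did.

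**Figure D3:**
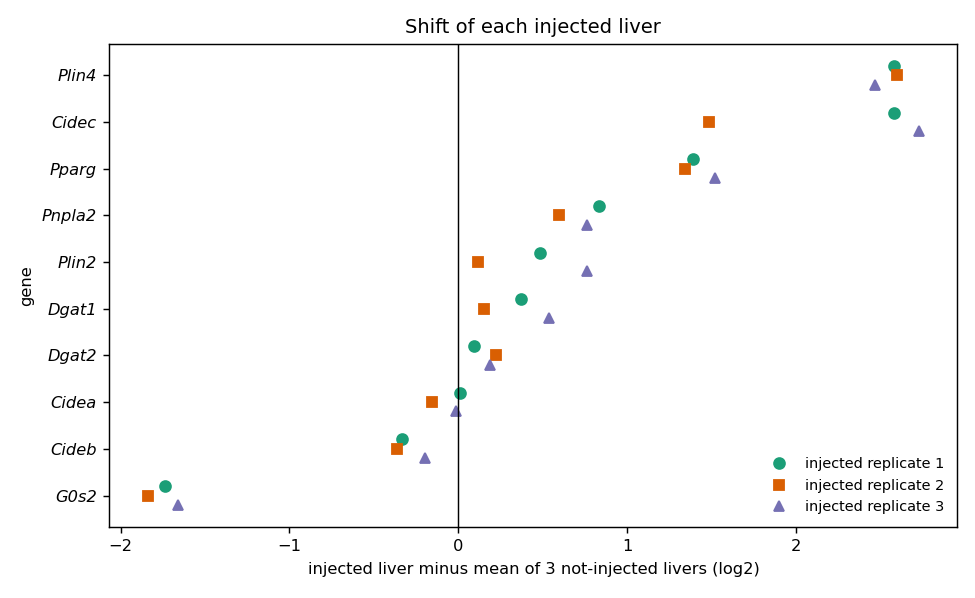
Shift of each TFEB-injected liver from the mean of the 3 livers without injection (horizontal axis, log2), per gene, with 1 marker per mouse. Replicate 2 lies well left of the others for Cidec and Plin2 but among or beyond them for Plin4 and G0s2.

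Among 11 other droplet protein genes measured, 2 rose, 2 fell and 7 missed the threshold. Without not-injected replicate 3 there were 2 higher and 0 lower calls by limma, since Fitm1 and Aup1 lost theirs (adjusted p up to 0.0529 and 0.0546), and Fitm1 also lost its call without not-injected replicate 2. The fit without not-injected replicate 3 called 16.4% of all genes. The median difference of the 11 was -0.08. Over all genes 14.2% were called higher and 13.9% lower, and the median difference was -0.05. Plin3, a perilipin found in most tissues, read 10.13, 9.62 and 9.92 in injected livers and 8.73, 8.42 and 8.49 in the others, a rise of 1.34 ± 0.14 (SE; limma adjusted p = 0.000845). The droplet dehydrogenase gene Hsd17b11 rose by 0.49 ± 0.10. Fitm1, which encodes a protein of the endoplasmic reticulum that partitions triglyceride into droplets, fell by 1.22 ± 0.27, and Aup1, a droplet protein of protein degradation, fell by 0.29 ± 0.06, which is within the size of the spike-in medians. Plin5, the perilipin of oxidative tissues, was picked for its role after its value was seen and read 0.02 ± 0.09 (limma adjusted p = 0.891).

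Genes of lipolysis and lipid release other than Pnpla2 were mostly lower or did not pass. Of 9 measured genes 1 was higher, 4 were lower and 4 did not pass, with a median of -0.39. The carboxylesterases Ces1f and Ces1d, which hydrolyse lipids in the endoplasmic reticulum, fell by 1.81 ± 0.29 and 1.06 ± 0.13, and the deacetylase gene Aadac by 0.48 ± 0.07. The fall of Aadac is within the range of the poly-A spike-ins (-0.57 to -0.30), whose part in it was not tested. Lipa, which encodes the acid lipase of lysosomes, read 0.25 ± 0.07 higher and passed narrowly (limma adjusted p = 0.0412). It kept its call in 1 of the 6 fits with an array left out, that without injected replicate 2 (adjusted p 0.0188 to 0.136 over the 6). The count called was 3, all lower, rather than 5 without not-injected replicate 2 or 3 or injected replicate 1 or 3. These fits called 15.9% to 19.0% of all genes, against 28.1% with all arrays. Abhd5, whose product activates ATGL, was picked for its role after its value was seen and read -0.18 ± 0.13 (limma adjusted p = 0.335).

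Of 12 measured genes of glycerolipid synthesis other than the DGAT genes, 4 were higher, 1 was lower and 7 did not pass. The median was 0.11. The count called was 5, and 3 without not-injected replicate 2, where 15.9% of all genes were called against 28.1% with all arrays. Mogat2, a monoacylglycerol acyltransferase, read 9.54, 9.19 and 9.15 in injected livers and 7.19, 7.07 and 7.20 in the others, a rise of 2.14 ± 0.11 (SE; 4.41-fold, limma adjusted p = 6.06e-05). The phosphatidate phosphatases Lpin1 and Lpin2, which supply diacylglycerol to the DGAT enzymes, rose by 1.27 ± 0.26 and 0.80 ± 0.10. For Lpin1, not-injected replicate 3 at 10.15 lay near the lowest injected liver at 10.45, and the call was lost without not-injected replicate 2 (adjusted p = 0.0512). Gpam, the mitochondrial enzyme of the first acylation step, fell by 0.61 ± 0.09.

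Genes listed as PPAR-gamma targets of fat cells and fatty liver, apart from the set itself, did not move as a block. Of 14 measured, 4 were higher, 2 were lower and 8 did not pass, with a median of 0.04. Over all genes 28.1% were called, with a median of -0.05. On all arrays 3 of the 14 read under 5.46, the lowest of the arrays' lower quartiles. With only genes at or above the median level kept, 3 of 7 were higher and 2 lower, with a median of 0.89. That fit called 45.7% of all genes it kept, with a median of -0.0085. The fatty acid transporter gene Cd36 read 12.11, 12.00 and 12.18 in injected livers and 8.49, 8.20 and 8.39 in the others, a rise of 3.74 ± 0.09. Lipoprotein lipase, encoded by Lpl, rose by 1.45 ± 0.08 and its inhibitor gene Angptl4 by 1.05 ± 0.18. The gluconeogenic gene Pck1 fell by 1.14 ± 0.14 and the carbohydrate response factor gene Mlxipl by 0.84 ± 0.12.

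Among 20 measured partners and regulators of PPAR-gamma, 3 were higher, 7 lower and 10 did not pass, with a median of -0.11. There were 3 higher and 3 lower without not-injected replicate 1, 2 and 4 without not-injected replicate 2, and 2 and 2 without not-injected replicate 3. Without injected replicate 1 there were 2 higher and 3 lower, and 2 and 4 when injected replicate 3 was left out. These fits called 15.9% to 21.8% of all genes, against 28.1% with all arrays. The coactivator gene Ppargc1a rose by 2.24 ± 0.15, the adipogenic factor gene Cebpb by 0.35 ± 0.07 and the corepressor gene Nrip1 by 0.65 ± 0.17. Rxra, which encodes the heterodimer partner of PPARs, fell by 0.32 ± 0.07, Cebpa by 0.53 ± 0.12 and the glucocorticoid-induced Tsc22d3 by 1.34 ± 0.15. The fall of Rxra is as large as the hybridisation spike-in median of -0.32, and that of Cebpa is within the range of the poly-A spike-ins (-0.57 to -0.30). The part of the spike-in shift in these falls was not tested. Nrip1 lost its call without not-injected replicate 2 or 3 or injected replicate 1 or 3 (adjusted p up to 0.0945), and Cebpa without not-injected replicate 2 or 3 (up to 0.0585).

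In VLDL assembly, the route by which hepatocytes export triglyceride, 2 of 9 genes were higher, 3 were lower and 4 did not pass. The median was 0.06. The count called was 5, and 3 without not-injected replicate 3, where 16.4% of all genes were called against 28.1% with all arrays. Apoa4, an apolipoprotein gene, rose by 1.89 ± 0.25 and Apob, the structural protein of VLDL, by 0.29 ± 0.07. The triglyceride transfer protein gene Mttp fell by 0.37 ± 0.08, and the secretory transport genes Surf4 and Sar1b by 0.44 ± 0.08 and 0.35 ± 0.06. These falls are of the size of the spike-in medians (-0.32 and -0.44), whose part in them was not tested. Mttp lost its call without not-injected replicate 2 or 3 (adjusted p up to 0.0569), and Apob without not-injected replicate 1 or 3 or injected replicate 1 or 3 (up to 0.0897).

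**Figure D4:**
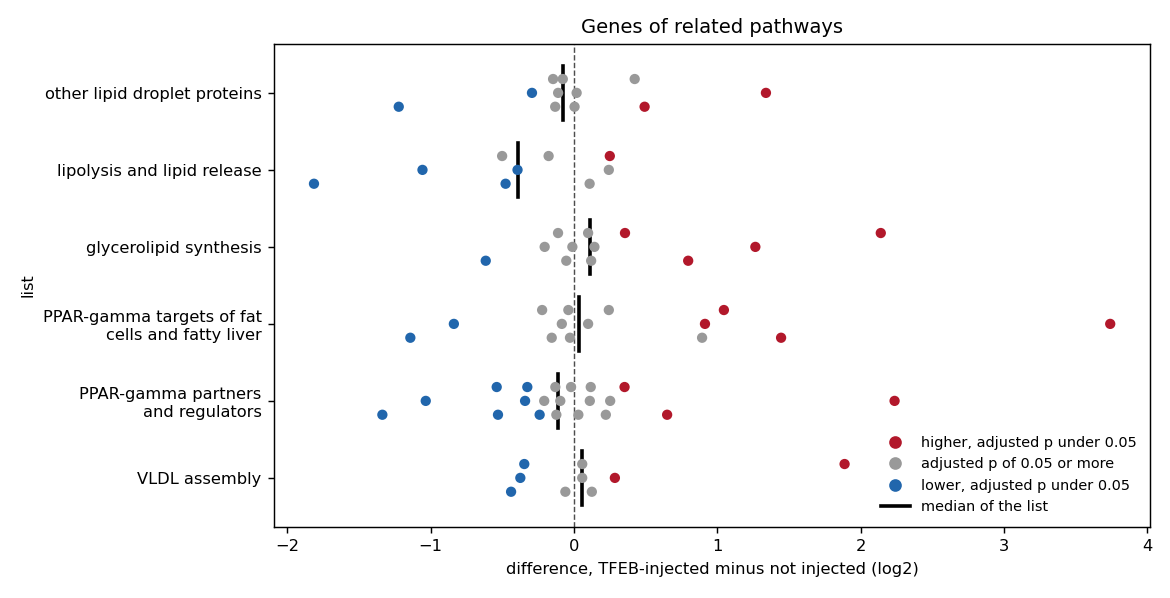
Difference in log2 level, TFEB-injected minus not injected (horizontal axis), of each measured gene in 6 related lists, 1 point per gene, with vertical offsets only for legibility. Red and blue points passed an adjusted p of 0.05, and black bars are list medians, which run from -0.39 for lipolysis and lipid release to 0.11 for glycerolipid synthesis.

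Several of the 10 genes are also used by fat cells, stellate cells or macrophages, and in whole liver RNA fewer cells of a type and less RNA per cell cannot be told apart. Of 7 fat cell markers limma called 0 (1 higher and 2 lower at an unadjusted p under 0.05), and their mean level was 6.85 to 6.95 in injected livers and 6.84 to 6.88 in the others. This list includes Cidea, itself of the 10 genes, and Car3, which raises the mean (14.34 in injected livers and 14.57 in the others). On all arrays 4 of the 7 read under 5.46, the lowest of the arrays' lower quartiles. The adipokine genes Adipoq (4.03 in injected livers and 4.25 in the others) and Lep (4.20 and 4.24 in that order) and the brown fat gene Ucp1 (4.84 and 4.87) were under that same quartile of 5.46. Fabp4, a lipid carrier gene of fat cells and macrophages, read 10.10, 8.61 and 9.49 in injected livers and 8.83, 8.33 and 8.36 in the others, with overlapping groups (0.89 ± 0.34; limma adjusted p = 0.0902). Of 10 stellate cell markers limma called 0 higher (1 at an unadjusted p under 0.05) and 1, Reln, lower. Their mean levels were 8.13 to 8.61 in injected livers and 8.21 to 8.26 in the others. Col3a1 read 10.99, 9.35 and 10.70 in injected livers and 9.41, 9.48 and 9.33 in the others. Without injected replicate 2, limma called Col3a1, Acta2 and Pdgfrb higher (adjusted p = 5.94e-05, 0.00224 and 0.00898) and no other marker of the list. That fit called 35.3% of all genes. Reln lost its call without not-injected replicate 2 or 3 or injected replicate 2 or 3 (limma adjusted p up to 0.135).

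Of 11 Kupffer cell and macrophage markers limma called 3 higher and 1 lower (5 higher and 1 lower at an unadjusted p under 0.05). Cd68 (1.74 ± 0.33), Lyz2 (0.93 ± 0.13) and Cd5l (0.49 ± 0.10) rose and Marco fell by 0.80 ± 0.20, while Adgre1 read 0.09 ± 0.14 and Clec4f -0.11 ± 0.13. This list had mean levels of 9.68 to 9.87 in injected livers and 9.30 to 9.69 in the others. Marco kept its call in 1 of 6 fits with an array left out, that without injected replicate 2 (limma adjusted p 0.00122 to 0.0811). Cd5l lost its call without not-injected replicate 2 (limma adjusted p = 0.0521). C1qa, C1qb and Vsig4 were called higher without not-injected replicate 1. Of 7 markers of lipid-laden macrophages 5 were higher, among them Gpnmb at 13.43, 11.14 and 13.48 in injected livers against 5.53, 5.88 and 5.39 in the others. Over all genes 14.2% were called higher. Lpl is both in this list and among the listed PPAR-gamma targets. The lipid-laden list had mean levels of 9.53 to 10.12 in injected livers and 7.83 to 8.08 in the others. Trem2 (6.56 in injected livers and 6.53 in the others) and Itgax (5.87 and 5.60 in that order) did not pass. Sinusoidal endothelial markers were higher in 4 of 8 genes by limma and lower in 0 (6 higher and 0 lower at an unadjusted p under 0.05), with mean levels of 8.73 to 8.94 in injected livers and 8.22 to 8.29 in the others. Bile duct markers gave 0 calls of 5 by limma (Epcam higher and Krt19 lower at an unadjusted p under 0.05). Their mean levels were 5.53 to 5.90 in injected livers and 5.62 to 5.65 in the others. Without injected replicate 2, limma called Epcam and Sox9 higher (adjusted p = 0.00123 and 0.00716) and no other bile duct marker. The part of these cell types in the results for the 10 genes was not tested.

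**Figure D5:**
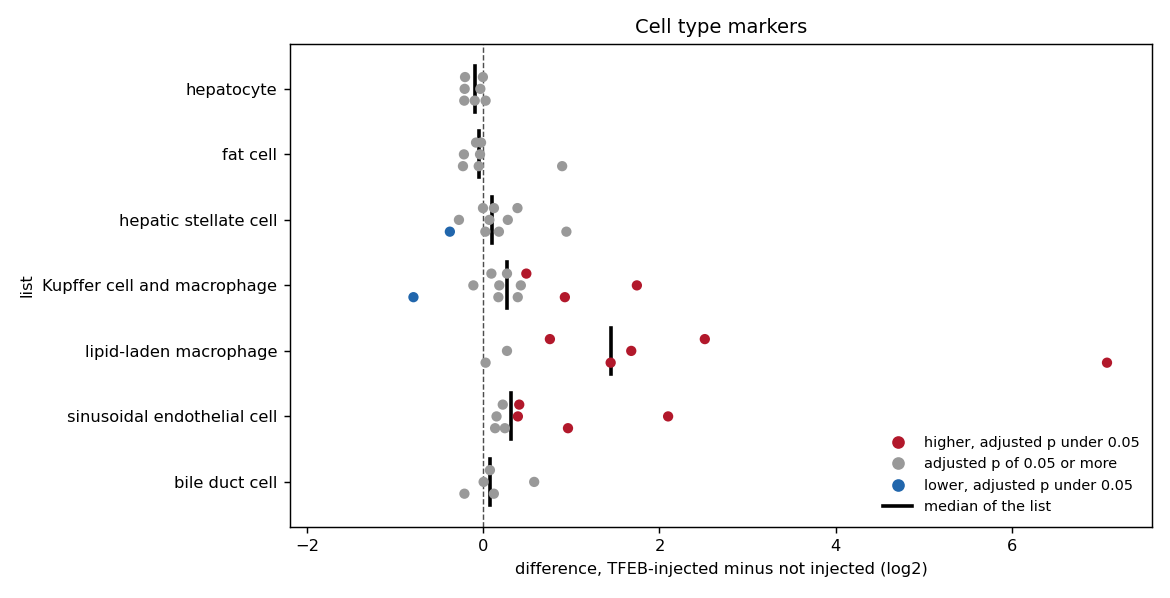
Difference in log2 level, TFEB-injected minus not injected (horizontal axis), of markers of 7 cell types, 1 point per gene, with black bars at list medians. Hepatocyte and fat cell markers hold 0 called genes, and the lipid-laden macrophage list has a median of 1.45 with Gpnmb at 7.08.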

How the data were processed

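Total RNA of 6 livers was measured on Affymetrix mouse expression arrays. The deposited values are log2 levels per probe set. The submitters' processing notes name the R package affy and RMA, without versions; further filters are not given in the sources used here. RMA equalises arrays and compresses low values, and no detection calls came with the values.

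The table held 22690 probe sets, 64 of them controls. Those with a single symbol (20380, against 691 with several and 1555 with none) gave 12393 genes, each represented by its probe set with the highest mean. Of these, 12369 gene identifiers were found in the RefSeq table, which changed 0 symbols. Differences, injected minus not injected, were tested with limma (3.58.1, R 4.3.3; lmFit and eBayes, prior degrees of freedom 3.47), two-sided, adjusted by Benjamini-Hochberg over all genes, and called under 0.05. Single values also had exact permutation tests. The script was tested on simulated data.

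The labels call the arrays biological replicates. Their numbers are shared between groups, but deviations of same-numbered arrays correlated by only 0.011 to 0.136, so no block was used. The 10 genes, the lists and the pairs were chosen with earlier results of these data known, so counts over them are descriptions without a list test. Named from each list were up to 3 called genes per direction with the smallest p, and the 3 genes nearest to Pparg and to Plin4. Plots were drawn with matplotlib 3.10.9, and tables and motif searches were made in Python 3.11.15 with scipy 1.17.1, pandas 2.3.3 and numpy 2.4.6. The number of arrays limits the precision.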

Additional observations from a re-analysis of the deposited data

How the results depend on the processing

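Settings changed one at a time were the replicate block, array weights, the variance moderation (with an intensity trend, or none), the scaling (centring, or another round of quantile normalisation), the probe sets (averaged per gene, or each fitted alone), a filter at the median level, and each array left out in turn. Of 147 values of the 10 genes under these, 132 kept direction and side of the threshold, 11 lost the call, 2 gained it (Plin2) and 2 changed sign (Cidea). With array weights Plin2 read 0.57 and Cidea 0.0048, after a second quantile normalisation Cidea read 0.00019 and Dgat1 0.29, and without variance moderation Dgat1 read 0.35 with its call lost. No variance moderation gave 1881 called genes in all, 2 other droplet genes, 2 of lipolysis and lipid release, 3 of glycerolipid synthesis, 4 partners of PPAR-gamma and 3 of VLDL assembly, and the mean of all probe sets gave 3 of lipolysis. The cause of these changes was not tested. Cidea, Cidec and Plin4 lie below the median level and have no value under that filter.

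With 1 array left out, differences ran from 0.30 to 0.62 for Plin2, -0.35 to -0.26 for Cideb and 0.26 to 0.45 for Dgat1. Called genes numbered 1973 (without not-injected replicate 2) to 4378 (without injected replicate 2) in all, 2 to 5 among other droplet proteins, 3 to 5 in lipolysis, 3 to 5 in glycerolipid synthesis, 4 to 10 among partners of PPAR-gamma and 3 to 5 in VLDL assembly. The labels do not say whether same-numbered arrays of the groups were handled together. In their deviations, 2 of 3 injected and 2 of 3 not-injected arrays correlated best with their own number. With the replicate block 3348 genes and 7 of the 10 genes were called, and Dgat1 kept an adjusted p of 0.0497.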
